A study of Mus musculus with 11 samples.

Results

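Igf1, Igf1r, Igf2r, Igfbp2, Igfbp3, Igfbp4, Igfbp5 and Igfbp7 encode a ligand, 2 receptors and 5 binding proteins of the insulin-like growth factor (IGF) system. They were chosen by gene symbol and are 8 of the 24898 genes in the deposited tables. Each of them was present at every age. The study captured single cells from the floor of the cochlear duct of wild-type CD1 mice in droplets (10x Chromium) and counted the 3′ ends of transcripts with unique molecular identifiers (UMIs). Cells came from embryonic day 14 (E14, 2 libraries), E16 (3 libraries), postnatal day 1 (P1, 4 libraries) and P7 (2 libraries, numbered 4 and 5), with no treatment at any age. Cochleae of several animals from 1 litter were pooled for a library, so that a library and not an animal is the replicate, and because each age had libraries of its own, age and preparation cannot be told apart.

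IGF1 is a secreted growth factor that signals through the receptor tyrosine kinase IGF1R and acts on growth, survival and differentiation. In the inner ear it is known for its part in cochlear development and hearing. IGF2R binds IGF2, carries it to lysosomes and so clears it, and also transports enzymes tagged with mannose 6-phosphate. The IGF binding proteins are secreted proteins that hold IGFs outside the cell, prolong their life and withhold them from, or deliver them to, the receptor. IGFBP7 binds IGFs only weakly and is grouped apart from the others.

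Igfbp2 and Igfbp5 are neighbours on mouse chromosome 1 (GRCm38), convergent and 5.458 kb apart. Igfbp2 spans 72824503 to 72852474 on the plus strand and Igfbp5 spans 72857932 to 72874884 on the minus strand. Igfbp3 (chromosome 11, 7206086 to 7213923, minus strand) and Igfbp4 (chromosome 11, 99041244 to 99054392, plus strand) both lie on chromosome 11, far apart. The 80 bases that end just before the transcription start of these 4 genes are shown, 5′ to 3′ on the coding strand. They come from RefSeq promoters of GRCm38.p6. The gene spans above come from GENCODE, and the starts of the 2 sources differ for Igfbp2 and Igfbp5. The Igfbp5 window therefore runs into the span given, and the Igfbp2 window ends short of it. Igf1, which also differed between regions at each age, is not shown. Igfbp2 has a second RefSeq start, which is not shown. The windows are chr1:72824400-72824479, plus strand (Igfbp2), chr11:7213924-7214003, minus strand (Igfbp3), chr11:99041164-99041243, plus strand (Igfbp4) and chr1:72874866-72874945, minus strand (Igfbp5). Capitals mark GGGCGG, the core of a GC box, in Igfbp2 and a form of the TATA box in the others, spelled TATATA in Igfbp3, TATAAA in Igfbp4 and TATTTA in Igfbp5.
Igfbp2: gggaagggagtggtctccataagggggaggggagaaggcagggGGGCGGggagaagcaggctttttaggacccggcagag
Igfbp3: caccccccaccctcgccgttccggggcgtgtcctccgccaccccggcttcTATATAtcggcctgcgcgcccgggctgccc
Igfbp4: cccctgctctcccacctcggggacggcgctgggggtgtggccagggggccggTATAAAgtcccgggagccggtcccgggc
Igfbp5: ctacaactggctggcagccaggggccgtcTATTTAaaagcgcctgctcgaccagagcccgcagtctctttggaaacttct

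Igfbp3, Igfbp4 and Igfbp5 each held one of the TATA spellings, starting 30, 28 and 51 bases before the RefSeq start, and the other 5 genes held none in the 300 bases from 250 before to 50 after it. GGGCGG was found in the windows of Igf1r, Igf2r, Igfbp2 and Igfbp7, in 2, 3, 3 and 4 copies. Of all 32851 RefSeq promoters of this length, 25.8% held any of the 3 TATA spellings (13.6% TATAAA, 5.67% TATATA, 13.7% TATTTA) and 35.7% held GGGCGG on either strand. TATATA reads the same on both strands, and the letters were chosen after the sequences had been seen, so a match describes the sequence only.

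The deposited tables hold 30634 cells and give no cell types, so cells were gated by lists of marker genes, none of them an IGF system gene. The gates were hair cells (Pou4f3, Myo7a), the lateral domain (Fgfr3, Prox1; lateral prosensory cells before birth, pillar and Deiters' cells after it), inner phalangeal cells (Matn4, Fabp7), Hensen's cells (Pmch), outer sulcus (Bmp4, Fst), Kölliker's organ (KO; Crabp1, Epyc), interdental cells (Otoa, Smoc2), the duct roof (Oc90) and, at P7, glia (Mbp) and mesenchyme (Col1a1, Col3a1). At E14 the inner phalangeal and Hensen's gates, of 38 and 82 cells, hold cells with those markers at an age when such cells have yet to differentiate, and the names stand for the gates only. The outer sulcus gate takes in Claudius cells as well, and before birth it stands for the lesser epithelial ridge. The study found Fst in Hensen's cells too, and Fst was among the leading genes of the P1 Hensen's gate. A gate is a range of a score and not a cluster: it took in 36.6% (P7) to 52.2% (E16) of cells, and 16.8% to 20.3% of cells lay within 0.1 of a limit. At P7 only 2 of 9 KO markers were at least 2-fold higher inside the KO gate than in the other cells, and that gate is called by its name here with this limit. Cells held a median of 2478 to 5647.5 UMIs per library. Levels are means of CPM (UMIs of a gene per 1000000 UMIs of a cell) over the cells of a gate in a library. Differences between groups are log2 differences of CPM + 10 with their standard error (±). Levels are compared between gates and ages and not between genes. Cell barcodes found in more than 1 library of an age numbered 11, 29, 84 and 9 at the 4 ages in order. Among the E16 libraries, replicate 3 had the lowest Igf1, Igf1r, Igfbp3 and Igfbp5 in each of the 8 epithelial gates.

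The 8 genes differed widely in where they were detected. A test of any difference among the gated regions called 6 of the 7 tested at E14 (background 18.4% of all genes), 7 of 7 at E16 (32.7%), 7 of 7 at P1 (70.5%) and 6 of 6 at P7 (31.8%) at an adjusted p under 0.05. Igfbp7 was below the filter of 10 CPM in these fits, and Igf2r was below it at P7. At E14 the gene not called was Igf2r (adjusted p = 0.552). The 3 calls at the edge were those of Igf1r, whose adjusted p was 0.0384 at E14 and 0.0256 at P7, and of Igfbp2 at P7 (0.0236), each lost in some of the alternatives tried. Igf1r at E14 was lost with a pseudocount of 1 CPM, with no filter on low values, with the stricter gate, without the 5% of cells with most UMIs and without library as a block (adjusted p from 0.0589 to 0.137), and at P7 with no filter on low values, with the stricter gate and without the 5% of cells with most UMIs (adjusted p from 0.0543 to 0.0637). Igfbp2 at P7 was lost with a pseudocount of 1 CPM and with no filter on low values (adjusted p = 0.0594 and 0.0864 in order of size). The call of Igf1r at E16 was lost without library as a block (adjusted p = 0.158). Igf2r at E16 (adjusted p = 0.00267) was no longer called without E16 replicate 2 (0.107) or replicate 3 (0.0726).

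**Figure D1:**
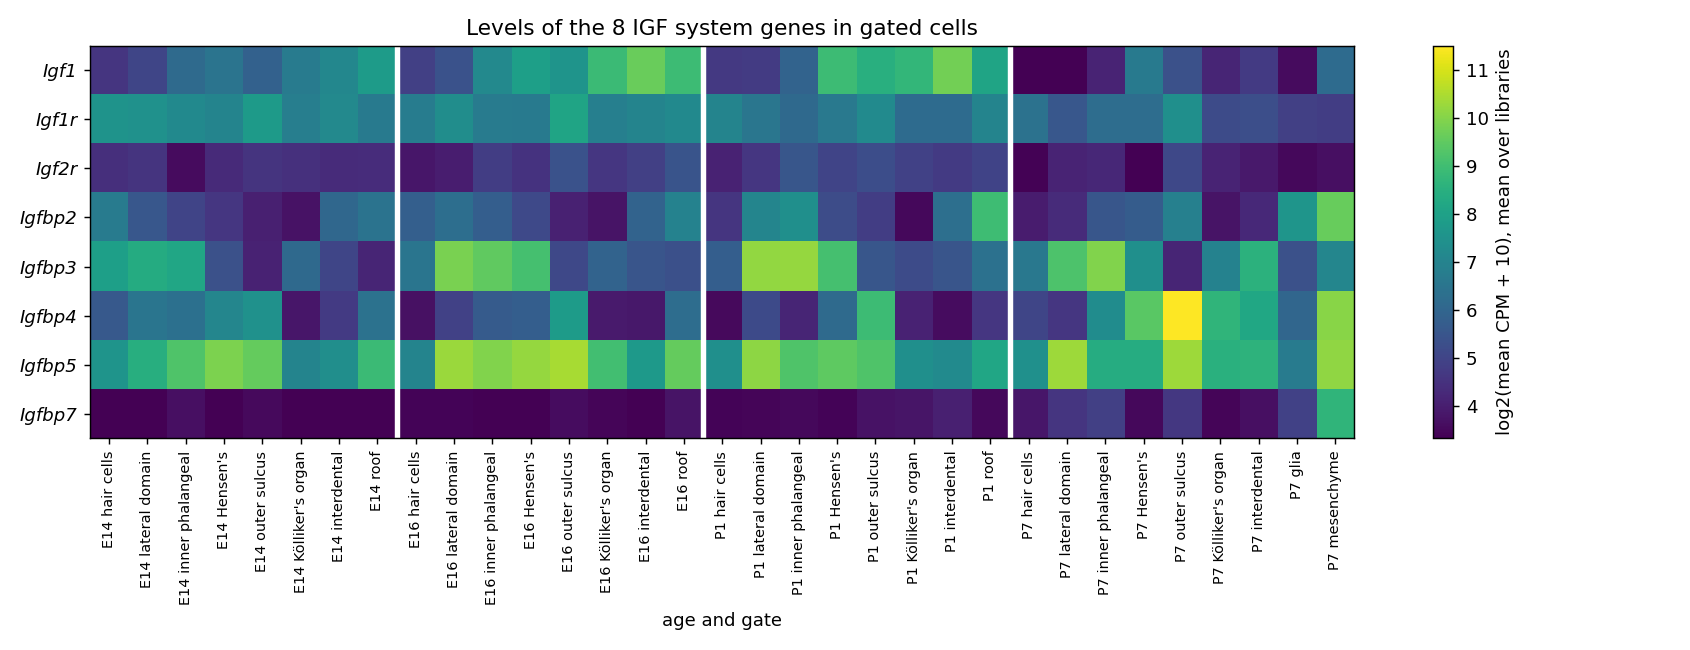
Mean level of each gene (rows) in each age and gate (columns), as log2(mean CPM + 10) averaged over libraries, from dark (near 0 CPM) to yellow. Igf1 is brightest in the interdental gate at E16 and P1, Igfbp3 in the lateral domain and inner phalangeal gates, Igfbp4 in the P7 outer sulcus, and Igfbp7 in P7 mesenchyme.

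Igf1, the ligand, was highest in interdental cells at E16 and P1, was also high in KO at those ages, and was nearly lost from both by P7. In the KO gate the levels were 96.2 and 97.6 CPM at E14, 590.0, 524 and 304 at E16, then 417, 372, 422 and 461 at P1 and 7.73 and 7.95 by P7. No library of E16 or P1 overlapped with one of E14 or P7. The step from E14 to E16 was a rise (log2 difference 2.12 ± 0.27, adjusted p = 0.000323). The step from P1 to P7 was a fall (log2 difference -4.58 ± 0.25, adjusted p = 2.78e-09), while E16 and P1 differed by less than the spread of the libraries (log2 difference -0.12 ± 0.22, adjusted p = 0.803). Across all genes tested the median change was -0.19 from E14 to E16 and -0.11 from P1 to P7 in KO, and -0.14 and -0.10 in the lateral domain. Over all cells of a library, gated or not, Igf1 stood at 80.7 and 98.4 CPM at E14, 439.9, 409.5 and 246 at E16, then 247, 299, 309 and 365 at P1 and 17.2 and 19.1 by P7, so that the same order held where no gate was used.

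The interdental gate, cells at the medial edge that secrete the tectorial membrane's matrix, had the highest Igf1 at E16 and P1. Its libraries held 112 and 144 CPM at E14, 996, 913 and 477 at E16, then 513, 802, 1128 and 996 at P1 and 26.4 and 5.71 by P7. At P1 each interdental library was above its own KO value, and KO lay above the inner phalangeal gate (41.5, 46.5, 46.1 and 72.1 CPM), which borders it. Hensen's cells held 412, 341, 287 and 896 CPM and the outer sulcus 92.5, 182, 322 and 813 CPM at P1, both with replicate 4 highest. In the roof the mean over libraries was 215 CPM at E14, the highest of the epithelial gates at that age. It was 484 CPM at E16 and 263 CPM at P1, against 473 and 418 CPM in KO. With each cell drawn down to 1500 UMIs, Igf1 was detected at P1 in interdental cells at a share of 52.6% (601 of 1143 cells, 95% interval 49.6% to 55.5%, 79.4% at full depth). In KO the share was 39.4% (652 of 1654 cells, 95% interval 37.1% to 41.8%, 63% at full depth).

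Hair cells and the lateral domain were the low end of the Igf1 range. At P1 the lateral domain held 29.9, 8.56, 11.8 and 17.6 CPM and hair cells held 26.6, 9.12, 12.2 and 15.6 CPM. The thinned share was 2.1% (18 of 856 cells, 95% interval 1.25% to 3.3%, 6.07% at full depth) in the lateral domain and 1.41% (13 of 925 cells, 95% interval 0.75% to 2.39%, 5.3% at full depth) in hair cells. These low shares are not read as expression, and the difference between the gates did not pass the test (log2 difference -0.04 ± 0.33, adjusted p = 0.936). Neither gate had an Igf1 UMI in either P7 library, in 155 lateral domain cells and 230 hair cells. The step from P1 to P7 was -1.37 ± 0.52 in the lateral domain (adjusted p = 0.103). It was called with a pseudocount of 1 CPM (adjusted p = 0.0113), without E16 replicate 3 (0.0389) and with weights for counting error (0.0413). In hair cells it was -1.33 ± 0.38 (adjusted p = 0.0162) and was lost without P7 replicate 4 (adjusted p = 0.123) or replicate 5 (0.139), and with no filter on low values, without the 5% of cells with most UMIs and with the replicate number as a block (adjusted p from 0.0749 to 0.237). No fall of expression in these gates is read from either value, since the level over all cells fell as well and the part of free RNA was not tested.

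Against the mean of the other gated regions the lateral domain was lower in Igf1 at E14 (log2 difference -1.51 ± 0.34, adjusted p = 0.0121) and E16 (log2 difference -2.70 ± 0.20, adjusted p = 1.71e-11). It was lower too at P1 (log2 difference -3.01 ± 0.25, adjusted p = 3.20e-11) and P7 (log2 difference -1.36 ± 0.40, adjusted p = 0.049). At E14 and at P7 the call was lost when genes of low level were kept in the fit (adjusted p = 0.107 and 0.131). At E14 it was lost as well without library as a block (0.098), and at P7 without the 5% of cells with most UMIs (0.0767). The 4 ages were not tested against one another for this difference. At P7, the highest Igf1 was in Hensen's cells (62.8 and 125 CPM, 40 cells in all), supporting cells lateral to the outer hair cells, and in mesenchyme (55.6 and 68.5 CPM).

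Igf1r, the signalling receptor, was found in every gate at every age. Among the epithelial gates, subgates aside, the outer sulcus was highest on average at each age, with 189 and 236 CPM at E14, 389, 285 and 114 at E16, then 152, 111, 118 and 178 at P1 and 229.7 and 90.8 by P7. Hair cells held 211 and 138 CPM at E14, 114, 119 and 59.6 at E16, then 104, 126, 146 and 106 at P1 and 67.7 and 83.2 by P7. Within a library the outer sulcus was above hair cells in 1 of 2 at E14, 3 of 3 at E16, 2 of 4 at P1 and 2 of 2 at P7. In the lateral domain the levels were 165 and 169.8 CPM at E14, 205, 157 and 93.8 at E16, then 80.4, 62, 97.1 and 95.6 at P1 and 41.4 and 32.9 by P7. KO cells had 89.7 and 117 CPM of Igf1r at E14, 156, 95.3 and 64 at E16, then 59, 41.3, 63.8 and 84.6 at P1 and 23.9 and 29.8 by P7.

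In both of the last gates the P7 libraries lay below each P1 library. The falls from P1 to P7 passed the threshold narrowly, in the lateral domain (log2 difference -0.98 ± 0.30, adjusted p = 0.0409) and in KO (log2 difference -0.94 ± 0.32, adjusted p = 0.0464), and neither was stable. Without P7 replicate 4 the adjusted p became 0.147 and 0.237, and without replicate 5 it became 0.291 and 0.0923. Both were lost as well without E14 replicate 1 or 2, E16 replicate 2, or P1 replicate 3 or 4 (adjusted p between 0.0525 and 0.107), and that in KO without P1 replicate 1 (0.0504). The lateral domain call was lost with no filter on low values, with median-ratio scaling, on the mean of deposited log values, with the stricter gate, without the 5% of cells with most UMIs, with weights for counting error and with the replicate number as a block (adjusted p from 0.0522 to 0.292), and that in KO with no filter on low values, on the mean of deposited log values, without the 5% of cells with most UMIs, with weights for counting error, with the replicate number as a block and over all cells of each library (adjusted p from 0.0582 to 0.167). The weights and the use of all cells were added after the data had been seen. At P1 hair cells were above the lateral domain (log2 difference 0.48 ± 0.19, adjusted p = 0.0361), a call that was lost without P1 replicate 2 (0.34, adjusted p = 0.221) or replicate 3 (0.46, adjusted p = 0.109), and with no filter on low values, without the 5% of cells with most UMIs and without library as a block (adjusted p from 0.0575 to 0.174). The lateral domain did not pass the test against the other regions at any age (adjusted p = 0.536, 0.423, 0.815 and 0.445 from E14 to P7). At P7, glia (17.9 and 21.3 CPM) and mesenchyme (10.1 and 26.1 CPM) were below the epithelial mean, with log2 differences of -1.13 ± 0.37 (adjusted p = 0.0326) and -1.27 ± 0.37 (adjusted p = 0.0216). The first was lost with no filter on low values, with the stricter gate, with weights for counting error and against all other cells of the library (adjusted p from 0.0589 to 0.17).

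Igf2r, the clearance receptor, was low throughout. Its mean over libraries was highest in inner phalangeal cells at P1 (21, 44.4, 28.7 and 47.9 CPM) and in the roof at E16 (46.4, 25.8 and 27.7 CPM). Hair cells were at the low end, with 5.79, 7.42, 4.76 and 10.2 CPM at P1 and 0 and 0.588 CPM at P7. The regional difference at P1 was called (adjusted p = 0.000148), but neither the lateral domain contrast (log2 difference -0.30 ± 0.17, adjusted p = 0.226) nor hair cells against the lateral domain (log2 difference -0.50 ± 0.23, adjusted p = 0.0728) passed on its own. The latter was called with a pseudocount of 1 CPM, with the stricter gate and with weights for counting error (adjusted p from 0.0294 to 0.0417). At E16 the lateral domain contrast (log2 difference -0.83 ± 0.28, adjusted p = 0.0679) was called with the stricter gate and with weights for counting error (adjusted p = 0.0369 and 0.0457 in order of size).

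**Figure D2:**
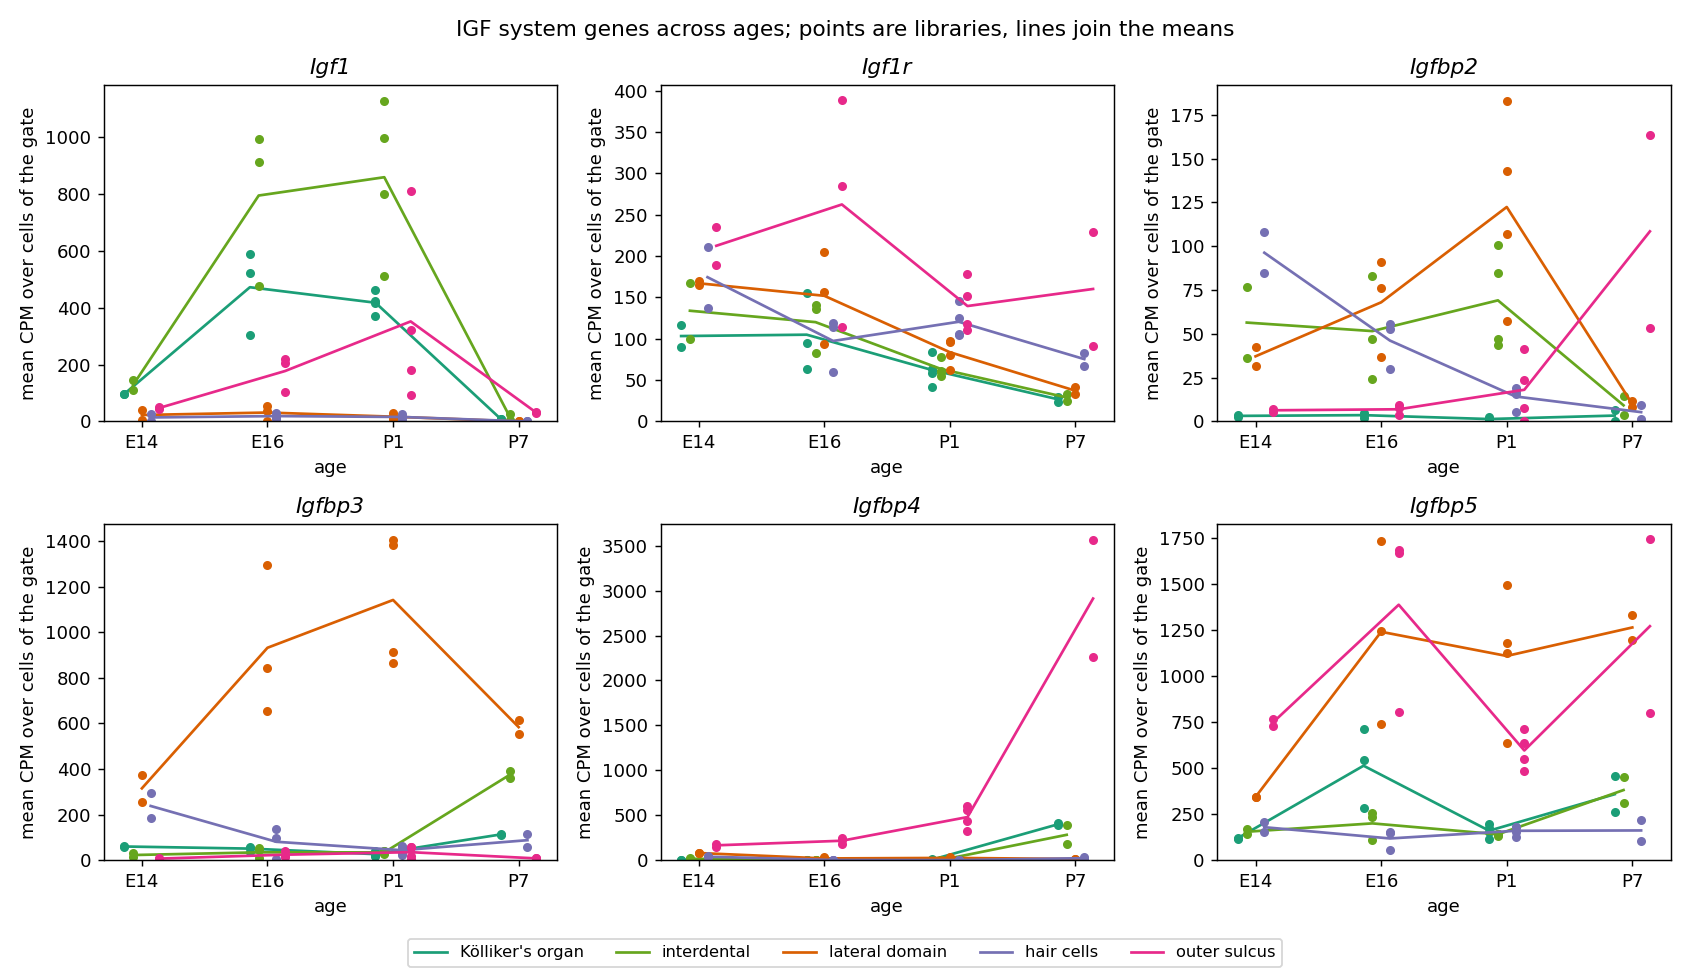
Mean CPM (y axis, linear) of Igf1, Igf1r, Igfbp2, Igfbp3, Igfbp4 and Igfbp5 at the 4 ages (x axis) in 5 gates, with 1 point per library and lines through the means. Igf1 in KO and interdental cells is high at E16 and P1 and near the axis at P7, Igfbp3 is apart in the lateral domain, and Igfbp4 in the outer sulcus reaches 2257 and 3566 CPM at P7.

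Igfbp3, which encodes the main carrier of IGFs in the circulation, was high in the lateral domain and in inner phalangeal cells. Lateral domain libraries held 374 and 256 CPM at E14, 843, 1297 and 656 at E16, then 912, 1383, 1406 and 866 at P1 and 553 and 615 by P7. At P1 the outer sulcus held 58.5, 5.75, 58.2 and 19.2 CPM, KO 31.9, 18.4, 17.4 and 39.4 CPM and interdental cells 40.1, 38.6, 27.2 and 31.8 CPM, with no library near the lowest of the lateral domain. Thinned to 1500 UMIs, the share of lateral domain cells with an Igfbp3 UMI at P1 was 64.3% (550 of 856 cells, 95% interval 60.9% to 67.5%, 84.2% at full depth). Among hair cells it was 3.78% (35 of 925 cells, 95% interval 2.65% to 5.22%, 9.3% at full depth).

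Against the mean of the other regions Igfbp3 was higher in the lateral domain at E14 (log2 difference 2.56 ± 0.39, adjusted p = 0.00043), E16 (log2 difference 3.27 ± 0.28, adjusted p = 3.84e-10) and P1 (log2 difference 3.58 ± 0.44, adjusted p = 1.11e-07). At P7 the difference was 2.23 ± 0.73 and missed the threshold (adjusted p = 0.0829). It was called on the mean of deposited log values, with the stricter gate, with weights for counting error and against all other cells of the library (adjusted p from 1.13e-06 to 0.0195). The weighted fit made slightly more false calls than its threshold sets on simulated data of this contrast. Of the 7 members tested, 2 were called in this contrast at E14 (1 higher, 1 lower, background 4.02%) and 3 at E16 (2 higher, 1 lower, background 6.65%). The count was 4 of 7 at P1 (3 higher, 1 lower, background 24.4%) and 3 of 6 at P7 (1 higher, 2 lower, background 8.4%). The lateral domain was not alone in its Igfbp3: inner phalangeal cells, which surround the inner hair cells, held 389.8 and 170.5 CPM at E14, 798, 786 and 601 at E16, then 923, 1530.2, 1299 and 1015 at P1 and 1433 and 545 by P7. Within a library they were above the lateral domain in 1 of 2 at E14, none of 3 at E16, 3 of 4 at P1 and 1 of 2 at P7. Hensen's cells were uneven at P1, with 127, 1322.5, 628 and 70.8 CPM.

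Hair cells, the neighbours of these supporting cells, held 293 and 183 CPM of Igfbp3 at E14, 137, 99 and 6.91 at E16, then 57.2, 64.6, 30.7 and 23.5 at P1 and 59.2 and 117 by P7. The steps from E16 to P1 and from P1 to P7 did not pass (adjusted p = 0.686 and 0.31), though without E16 replicate 3 the first did (-1.31, adjusted p = 0.0146). Compared with the lateral domain, hair cells were lower in Igfbp3 at E16 (log2 difference -3.81 ± 0.37, adjusted p = 1.76e-09) and P1 (log2 difference -4.46 ± 0.58, adjusted p = 9.50e-08), and at P7 the difference was -2.66 ± 0.96 (adjusted p = 0.0691). The P7 difference was called on the mean of deposited log values, with the stricter gate, without the 5% of cells with most UMIs and with weights for counting error (adjusted p from 0.000815 to 0.0333). At P7 the inner hair cell subgate (25 and 37 cells) held 75.7 and 354 CPM and the outer hair cell subgate (18 and 24 cells) 22.3 and 2.79 CPM. The summed level of the 3 inner phalangeal markers was 117 and 250.2 CPM in the first and 0 and 6.0 CPM in the second, and its part in the difference was not tested.

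Over time, Igfbp3 in the lateral domain rose from E14 to E16 (log2 difference 1.5 ± 0.30, adjusted p = 0.00506; without E14 replicate 2, 1.24, adjusted p = 0.145). E16 and P1 overlapped (log2 difference 0.31 ± 0.25, adjusted p = 0.549). The P7 libraries were below each P1 library (log2 difference -0.92 ± 0.28, adjusted p = 0.0383), a call lost without any one of P1 replicates 2 and 3 and P7 replicates 4 and 5 (adjusted p = 0.105, 0.111, 0.255 and 0.155). It was lost as well with a pseudocount of 1 CPM, with no filter on low values, with median-ratio scaling, without the 5% of cells with most UMIs and with the replicate number as a block (adjusted p from 0.0505 to 0.487). On the medial side, P7 interdental cells held 389.9 and 360.3 CPM, a step that was not tested, and KO held 113 and 114 CPM, a rise from P1 (log2 difference 1.79 ± 0.29, adjusted p = 0.000333). Taken over all cells of each library, where the mix of cells also changed, the difference of P7 from P1 was 0.04, adjusted p = 0.936.

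Igfbp5, a binding protein that attaches to the extracellular matrix, was high in the lateral domain from E16 on and low in hair cells at each age, as it was in KO and interdental cells at E14 and P1. In the lateral domain it stood at 344 and 344 CPM at E14, 1248, 1736 and 740.0 at E16, then 1126, 1178, 1498 and 638 at P1 and 1198 and 1331.5 by P7. The outer sulcus was above it in both E14 libraries, in 2 of 3 at E16, in none of 4 at P1 and in 1 of 2 at P7, with 730.0 and 769 CPM at E14, 1671, 1687 and 807 at E16, then 549, 638, 715 and 484 at P1 and 799 and 1744.5 by P7. Hair cells stayed between 57.9 and 219.7 CPM in each of the 11 libraries. Interdental cells held 169 and 140.3 CPM at E14, 233, 256 and 111 at E16, then 134, 145, 141 and 143 at P1 and 450.1 and 313 by P7. At E14 the lateral domain was at the mean of the other regions (log2 difference -0.03 ± 0.13, adjusted p = 0.949). It was above that mean at E16 (log2 difference 1.18 ± 0.15, adjusted p = 1.32e-06), P1 (log2 difference 1.83 ± 0.23, adjusted p = 1.08e-07) and P7 (log2 difference 1.76 ± 0.31, adjusted p = 0.00269). Without library as a block the E16 value missed the threshold (adjusted p = 0.0523).

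Hair cells were lower than the lateral domain in Igfbp5 at E16 (log2 difference -3.30 ± 0.20, adjusted p = 1.01e-13), P1 (log2 difference -2.67 ± 0.30, adjusted p = 3.61e-09) and P7 (log2 difference -2.98 ± 0.41, adjusted p = 0.000112). In that contrast 2 of 7 members were called at E16, both lower (background 13%), 5 of 7 at P1 (1 higher, 4 lower, 44.6% in either direction), and 1 of 6 at P7, lower (19.3%). From E14 to E16 Igfbp5 rose in the lateral domain (log2 difference 1.74 ± 0.33, adjusted p = 0.00342) and in KO (log2 difference 1.91 ± 0.34, adjusted p = 0.0046). Both calls rest on there being 2 libraries at E14: without replicate 1 the adjusted p was 0.072 and 0.0982, and without replicate 2 it was 0.0561 and 0.095, with nearly the same differences. Over all cells of each library the difference was 0.69, adjusted p = 0.143. In KO the level then fell from 711, 546 and 284 CPM at E16 to 117, 198, 175 and 152 at P1 (log2 difference -1.55 ± 0.29, adjusted p = 0.00304), a call lost with the stricter gate (0.0551). It was 456 and 261 at P7 (log2 difference 1.08 ± 0.32, adjusted p = 0.0257), a call lost without P7 replicate 4 (0.69, adjusted p = 0.318) and with no filter on low values, on the mean of deposited log values, with the replicate number as a block and over all cells of each library (adjusted p from 0.0575 to 0.304). In Hensen's cells it was 1087 and 782 CPM at E14, 1742, 983 and 795 at E16, then 287, 1343, 964 and 219 at P1 and 209 and 437 by P7, with P1 replicates far apart.

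**Figure D3:**
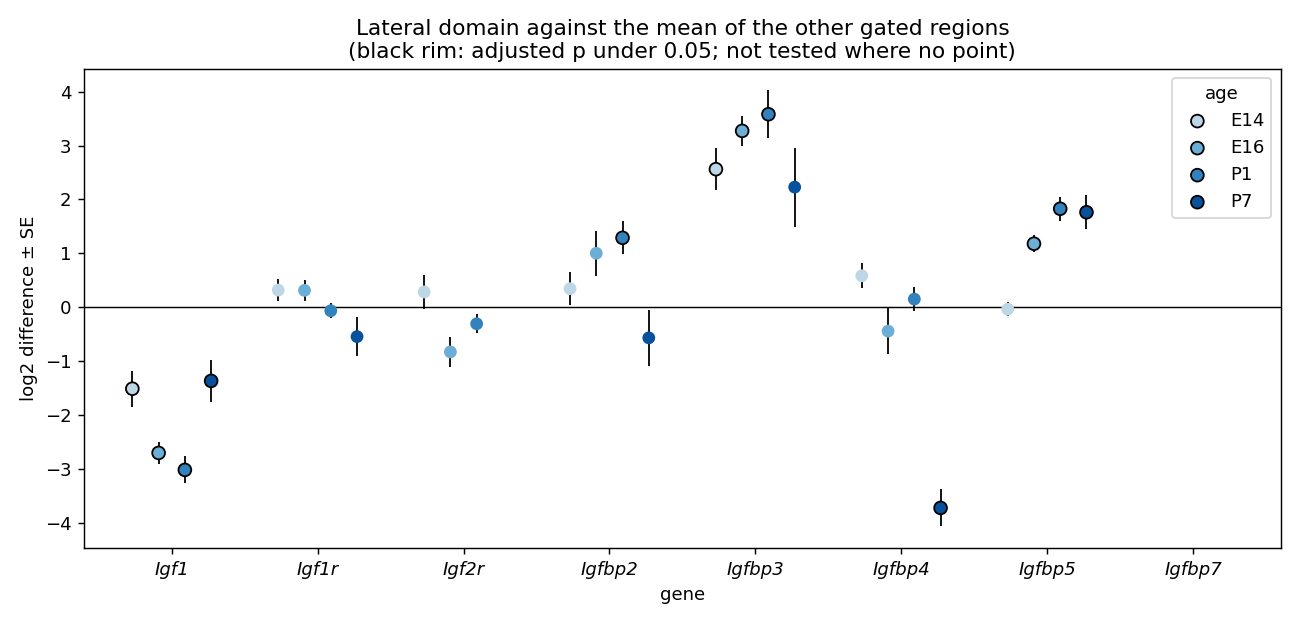
Log2 difference of the lateral domain from the mean of the other gated regions (y axis, ± SE) for each gene (x axis) and age (shade, E14 lightest), with a black rim where the adjusted p was under 0.05. Igf1 lies below 0 at each age, Igfbp3 above 0 at each age, and Igfbp4 is at -3.72 at P7.

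Igfbp4, which holds IGFs until a protease cuts it, was highest in the outer sulcus at each age and, at P7, was well detected in most of the other duct regions too. The outer sulcus held 182 and 149.7 CPM at E14, 243, 229.6 and 178 at E16 and 608, 321, 437 and 556 at P1, and it reached 2257 and 3566 CPM at P7 in 17 and 13 cells. The gate of replicate 5 also held glial markers at a sum of 2716.5 CPM, against 31.2 CPM in replicate 4, and Igfbp4 in P7 glia was 51.7 and 58.1 CPM. KO cells held 5.08 and 2.97 CPM at E14, 2.09, 7.62 and 5.01 at E16, then 12.7, 5.12, 6.34 and 4.65 at P1 and 388 and 412 by P7. The KO level rose from P1 to P7 (log2 difference 4.60 ± 0.27, adjusted p = 5.83e-09). No KO library before P7 held more than 12.7 CPM, and Igfbp4 passed the filter of 10 CPM only through its P7 values. The call was thus close to set in advance and lends no support. Over all cells, gated or not, the level went from 24.7, 8.65, 9.31 and 14.1 CPM at P1 to 386 and 442 CPM at P7. The mix of cells changed too, with 60 and 115 mesenchyme cells at P7 and at most 2 in a P1 library, and its part was not tested.

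Interdental cells went from 0.921, 1.49, 1.38 and 4.65 CPM at P1 to 390.1 and 176 at P7, Hensen's cells from 67.9, 37.9, 78.1 and 63.9 to 375 and 985, and inner phalangeal cells from 4.97, 13.5, 3.19 and 10.0 to 139.8 and 156. In each of these gates both P7 libraries were above all P1 libraries. These steps were not tested. The lateral domain had no such rise, with 18.9, 41.4, 17.1 and 25.9 CPM at P1 and 10.1 and 18.6 at P7 (log2 difference -0.53 ± 0.43, adjusted p = 0.495). At P7 it was far below the mean of the other regions (log2 difference -3.72 ± 0.34, adjusted p = 1.01e-05), whereas at E14 the difference had been 0.59 ± 0.23 (adjusted p = 0.222; called against all other cells of the library (adjusted p = 0.0426)). Hair cells were also low at P7, with 31.3 and 14.6 CPM, and did not pass against the lateral domain (log2 difference 0.41 ± 0.45, adjusted p = 0.608). At 1500 UMIs per cell, Igfbp4 was detected in 83.3% (25 of 30 cells, 95% interval 65.3% to 94.4%, 96.7% at full depth) of P7 outer sulcus cells. The share was 32% (41 of 128 cells, 95% interval 24.1% to 40.9%, 50% at full depth) in KO and 1.94% (3 of 155 cells, 95% interval 0.401% to 5.55%, 3.23% at full depth) in the lateral domain.

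Earlier, the lateral domain had gone from 83 and 77.6 CPM at E14 to 2.64, 20.4 and 37 at E16 (log2 difference -1.78 ± 0.45, adjusted p = 0.0279). That call was lost without E14 replicate 1 or 2 (adjusted p = 0.236 and 0.161) and without E16 replicate 1 or 2 (0.118 and 0.0534). It was lost as well with a pseudocount of 1 CPM, with no filter on low values, with median-ratio scaling, with the stricter gate and with weights for counting error (adjusted p from 0.0505 to 0.113). In hair cells Igfbp4 was 2.2, 0, 0.838 and 3.52 CPM at P1 and 31.3 and 14.6 at P7 (log2 difference 1.46 ± 0.31, adjusted p = 0.00158), a call lost without P7 replicate 4 (1.09, adjusted p = 0.0868) and with the replicate number as a block (adjusted p = 0.0726). The level over all cells of a library rose in the same step, the part of free RNA in the hair cell values was not tested, and no expression in hair cells is read from them. Hair cells were below the lateral domain in Igfbp4 at P1 (log2 difference -1.58 ± 0.28, adjusted p = 2.01e-05), a call lost on the mean of deposited log values (-0.12, adjusted p = 0.116).

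Igfbp2, the next gene along from Igfbp5, had another pattern than its neighbour. It was at its epithelial peak in the P1 roof (131, 756 and 592 CPM in replicates 1, 2 and 4), and the roof held 67.7 and 87.7 CPM at E14 and 87.5, 60.2 and 191 at E16. KO was lowest, with no library above 6.75 CPM at any age. Hair cells held 108 and 84.5 CPM at E14, 55.8, 29.9 and 52.8 at E16, then 5.59, 15.9, 19 and 16.6 at P1 and 1.19 and 9.47 by P7, with each age below the one before it and no overlap until P7. The fall from E16 to P1 was called (log2 difference -1.21 ± 0.31, adjusted p = 0.00843; without E16 replicate 1, -1.08, adjusted p = 0.0517). The step from P1 to P7 did not pass (log2 difference -0.68 ± 0.35, adjusted p = 0.199), and that from E14 to E16 was not tested.

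In the lateral domain Igfbp2 was 42.6 and 31.7 CPM at E14, 91.1, 76.3 and 36.5 at E16, then 57.2, 107, 143 and 183 at P1 and 11.4 and 8.47 by P7. At P1 it was above the mean of the other regions (log2 difference 1.29 ± 0.31, adjusted p = 0.00159), though the mean over libraries was higher in the roof (493 CPM) and in inner phalangeal cells (161 CPM) than in the lateral domain (122 CPM), and hair cells were below it (log2 difference -2.38 ± 0.40, adjusted p = 8.69e-06). The fall to P7 was called with each of the alternatives tried (log2 difference -2.63 ± 0.39, adjusted p = 6.57e-05). At P1 the inner phalangeal gate held 70.7, 75.8, 82.5 and 414 CPM, with replicate 4 far above the others, and its higher mean than the lateral domain rests on that library. The P1 lateral domain contrast missed the threshold when the mean of the deposited log values was used (adjusted p = 0.0852).

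Counted over the age steps, 3 of the 7 members tested in the lateral domain were called from E14 to E16 (2 higher, 1 lower, background 3.73%), none from E16 to P1 (4.21%) and 3 from P1 to P7, all lower (10.4%). For the step with none, limma gave an unadjusted p under 0.05 to 3 members (Igf1r, Igf2r and Igfbp2), the fit with weights called 0 members, the fit on deposited log values called 1 (Igfbp2), and without E16 replicate 3 Igf1r was called (-1.03, adjusted p = 0.0293). Leaving out E14 replicate 2 removed all 3 calls of the first step and leaving out E14 replicate 1 left 1. In KO, 2 of 6 were called from E14 to E16, both higher (2.82%), 1 from E16 to P1, lower (7.41%), and 5 from P1 to P7 (3 higher, 2 lower, 20.5%). In simulated data of that last step the fit made more false calls than its threshold sets, and with weights for counting error it made fewer but still more than that. With those weights Igf1, Igfbp3, Igfbp4 and Igfbp5 were still called and Igf1r was not. Igfbp4 was among the 6 tested in KO only through its P7 values, so its calls in this step lend no support. In hair cells 1 of 6 was called from E16 to P1, lower (17%), and 2 from P1 to P7 (1 higher, 1 lower, 18.5%). The steps share libraries and are not independent of one another.

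Within the P1 lateral domain Igfbp3 and Igfbp5 were highest in the subgate for Deiters' rows 1 and 2. They were lower in the row 3 and inner pillar subgates. Deiters' cells are the supporting cells beneath the outer hair cells, and inner pillar cells line the tunnel of Corti. Cells of the gate were gated again as inner pillar (Npy; 21 to 47 cells per library), Deiters' rows 1 and 2 (Car14, Mansc4; 19 to 47 cells) and Deiters' row 3 (Lgr5, Fgf3; 12 to 64 cells). Outer pillar cells had no subgate and may be part of that for rows 1 and 2. The study found them similar in transcripts to Deiters' cells of those rows. Their share was not tested, and rows 1 and 2 here stands for the subgate only. Igfbp3 was 1642, 2371.5, 2302 and 1171 CPM in rows 1 and 2, 262, 776, 677 and 557 CPM in row 3 and 291, 453, 642 and 639 CPM in inner pillar cells. No library of rows 1 and 2 overlapped with the other subgates, and the differences were 1.75 ± 0.18 (adjusted p = 2.72e-09) and 1.88 ± 0.18 (adjusted p = 3.22e-10). At 1500 UMIs per cell 91.7% (122 of 133 cells, 95% interval 85.7% to 95.8%, 100% at full depth) of rows 1 and 2 cells had an Igfbp3 UMI.

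Igfbp5 followed the same order, with 1282, 1560.4, 1669 and 851 CPM in rows 1 and 2, 698, 839, 1028 and 399 in row 3 and 538, 592, 866 and 462 in inner pillar cells. In each library rows 1 and 2 were highest, though the groups of libraries overlapped. Against row 3 the values were log2 difference 0.88 ± 0.13, adjusted p = 1.52e-05, and against inner pillar log2 difference 1.11 ± 0.13, adjusted p = 1.22e-07. The second was lost with the stricter gate (adjusted p = 0.0814). Igfbp2 was 52.5, 142, 184 and 299.9 CPM in rows 1 and 2 and 82.9, 126, 133 and 302 in inner pillar cells, which differed by less than the spread of the libraries (log2 difference 0.00 ± 0.29, adjusted p = 0.997). Row 3 was lower, at 7.36, 61.9, 65.9 and 57.8 CPM (log2 difference 1.62 ± 0.29, adjusted p = 0.000305). Igfbp4 had no UMI in the 133 cells of rows 1 and 2, against 59.9, 122, 69.3 and 46 CPM in inner pillar cells and 8.18, 12.4, 11.1 and 25.5 CPM in row 3. With 3 UMIs over the 4 libraries as the floor (4.12 CPM), inner pillar cells were at least 18-fold higher (adjusted p = 6.99e-06; 0.209 with the stricter gate). Igfbp4 passed the filter of 10 CPM in this fit only through the inner pillar values. That call was thus close to set in advance and lends no support. The difference from row 3 did not pass (log2 difference -1.23 ± 0.44, adjusted p = 0.144) but was called with a pseudocount of 1 CPM and with weights for counting error (adjusted p = 0.0308 and 0.0452 in order of size), and row 3 was not tested against inner pillar cells.

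Of the 6 members tested, 3 were higher in rows 1 and 2 than in row 3 (background 3.02%), and 2 were higher and 1 lower than in inner pillar cells (3.29%). The lower one was Igfbp4, which was among the 6 only through the inner pillar values. Both contrasts use the same rows 1 and 2 values. Without library as a block, only Igfbp3 remained called against row 3, and Igfbp2 and Igfbp5 had adjusted p = 0.175 and 0.217. Igf1r and Igf2r did not pass in either contrast (adjusted p = 0.537 and 0.522 against row 3, 0.131 and 0.281 against inner pillar). Igf1 was below the filter here, with no library above 18.7 CPM.

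**Figure D4:**
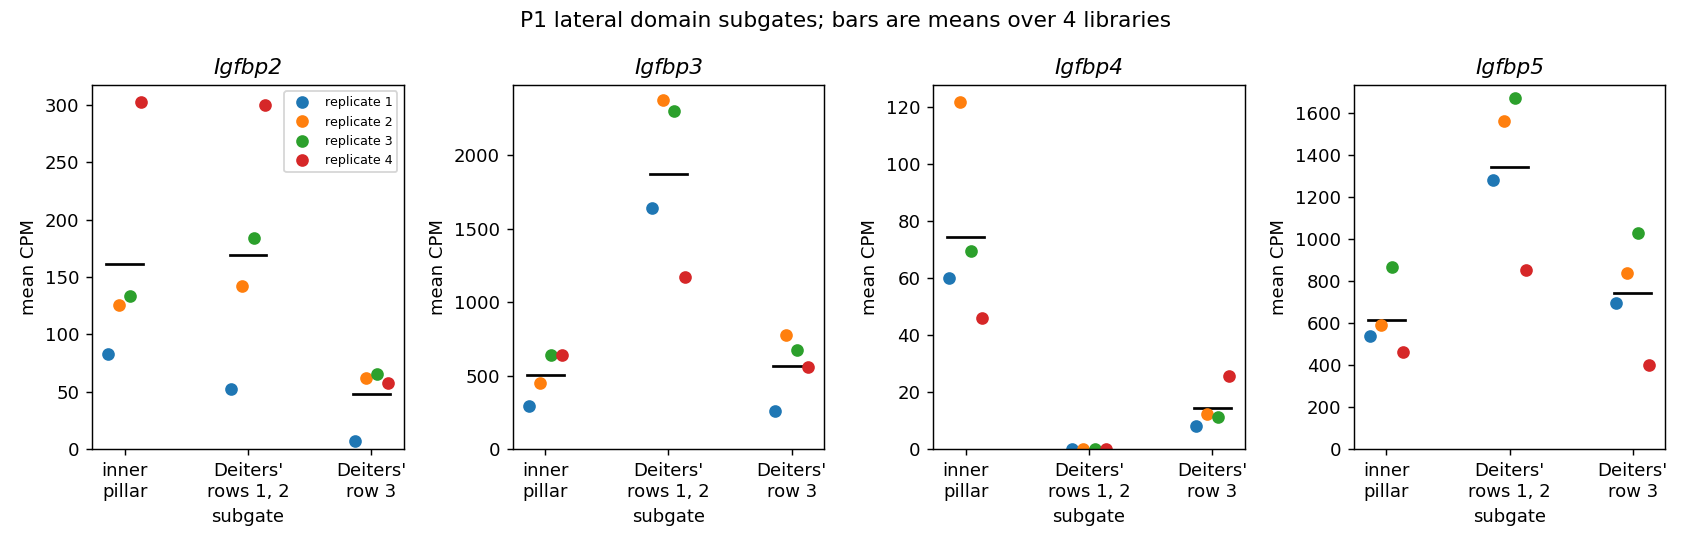
Mean CPM (y axis, linear, one scale per gene) of Igfbp2, Igfbp3, Igfbp4 and Igfbp5 in the P1 inner pillar, Deiters' rows 1 and 2 and Deiters' row 3 subgates, with 1 coloured point per library and a bar at the mean. Igfbp3 and Igfbp5 are highest in rows 1 and 2 in each library, and Igfbp4 is at 0 there in all 4.

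At P7 the libraries also held cells outside the epithelium, 175 in the mesenchyme gate and 131 in the glia gate. Mesenchyme stood apart from the epithelial gates in Igfbp2 and Igfbp7. Igfbp2 was 746 and 799 CPM and Igfbp7 401 and 396 CPM in mesenchyme. In the 7 epithelial gates at P7 no library held more than 163 CPM of Igfbp2 or 30.8 CPM of Igfbp7. Igfbp4 was 929 and 1167 CPM and Igfbp5 1133 and 1103.5 CPM in mesenchyme, within the range of the epithelial gates.

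Against the mean of the epithelial regions mesenchyme was higher in Igfbp2 (log2 difference 4.81 ± 0.48, adjusted p = 5.36e-07) and Igfbp7 (log2 difference 4.64 ± 0.38, adjusted p = 4.37e-08). Igfbp7 was below the 10 CPM filter in the epithelial gates alone and entered this fit only with mesenchyme and glia in it. Its call was thus close to set in advance and lends no support. The other higher members were Igfbp4 (log2 difference 2.27 ± 0.31, adjusted p = 2.42e-05) and Igf1 (log2 difference 1.68 ± 0.38, adjusted p = 0.00427). Igfbp5 (log2 difference 1.34 ± 0.51, adjusted p = 0.0826) and Igfbp3 (log2 difference -0.36 ± 0.65, adjusted p = 0.772) did not pass, though Igfbp5 was called higher on the mean of deposited log values, with weights for counting error and against all other cells of the library (adjusted p from 1.39e-09 to 0.0105) and Igfbp3 was called lower against all other cells of the library (adjusted p = 1.83e-06). At 1500 UMIs per cell Igfbp7 was detected in 30.9% (54 of 175 cells, 95% interval 24.1% to 38.3%, 40% at full depth) of mesenchyme cells. In the lateral domain the Igfbp7 share was 2.58% (4 of 155 cells, 95% interval 0.708% to 6.48%, 9.03% at full depth). Igfbp2 was detected in 59.4% (104 of 175 cells, 95% interval 51.8% to 66.8%, 76.6% at full depth) of mesenchyme cells. In the mesenchyme gate the summed macrophage markers were at 0 in both libraries and the endothelial markers at 25.6 and 43.2 CPM, against 5443 and 6435 CPM of the mesenchyme list. In all, 5 of 7 members were called (4 higher, 1 lower, background 17.5%), Igfbp7 among them with that limit.

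Glia had 5 of 7 called as well, but 1 higher and 4 lower (23.6%), with Igfbp7 again among the 7 only through the added gates. The higher one was Igfbp2, at 87.8 and 280.2 CPM (log2 difference 2.60 ± 0.48, adjusted p = 0.0005). Igfbp5 was 3.39 and 190.5 CPM (log2 difference -3.11 ± 0.51, adjusted p = 0.000186). Igfbp4 was 51.7 and 58.1 CPM (log2 difference -1.75 ± 0.31, adjusted p = 0.000322) and Igfbp3 was 29.2 and 32.8 CPM (log2 difference -1.95 ± 0.65, adjusted p = 0.0365). The call of Igfbp3 was lost with a pseudocount of 1 CPM, with no filter on low values, without the 5% of cells with most UMIs, with weights for counting error and without library as a block (adjusted p from 0.0575 to 0.253). Igfbp7 in glia was 17.1 and 23.5 CPM and did not pass (log2 difference 0.87 ± 0.38, adjusted p = 0.101). Mesenchyme markers summed to 1300.5 and 1156 CPM in the glia gate and glial markers to 188 and 209 CPM in the mesenchyme gate, and their part in the Igfbp2 of glia was not tested.

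**Figure D5:**
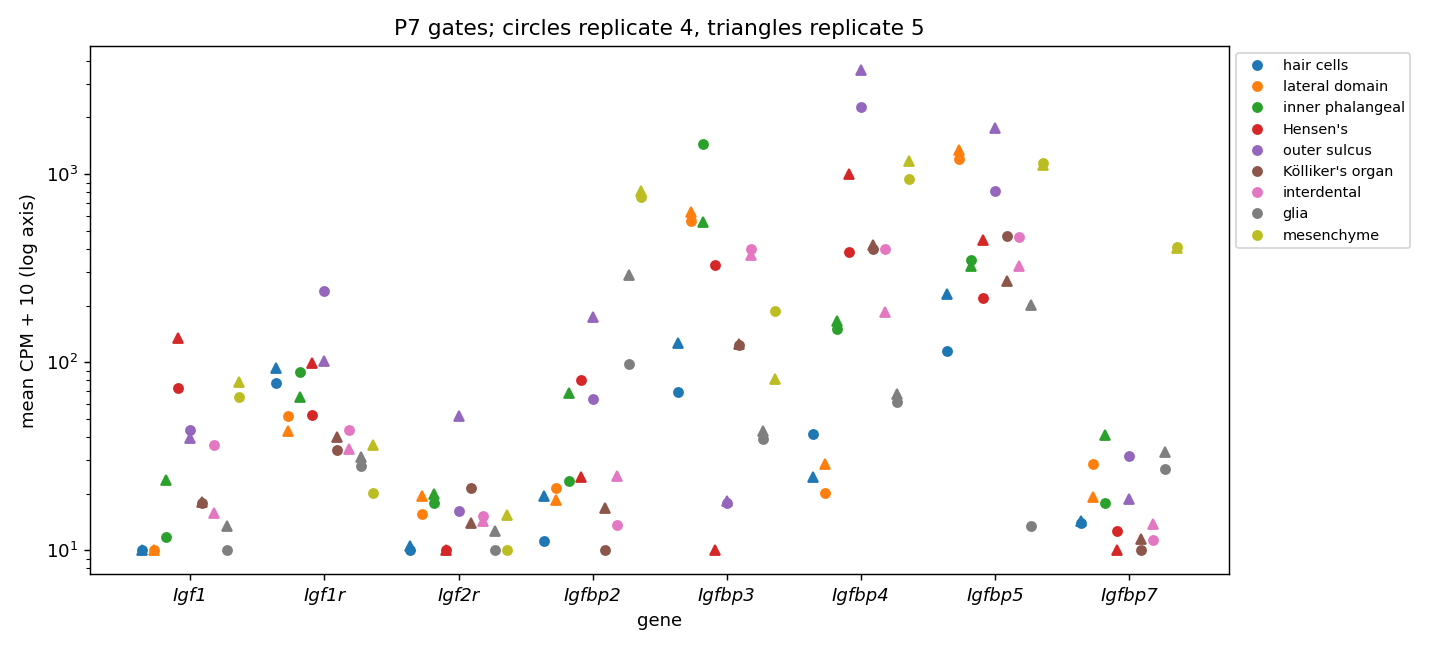
Level of each gene (x axis) in the 7 epithelial gates, glia and mesenchyme at P7, as mean CPM + 10 on a log axis, with replicate 4 as circles and replicate 5 as triangles. Igfbp7 and Igfbp2 stand highest in mesenchyme, Igfbp4 in the outer sulcus and Igfbp3 in inner phalangeal and lateral domain cells.

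Other genes of the IGF pathway were read from a list of 35, of which 34 were in the tables. In the lateral domain against the other regions, 4 of 22 tested were called at E14 (1 higher, 3 lower), 4 of 23 at E16 (1 higher, 3 lower), 8 of 23 at P1 (3 higher, 5 lower) and 3 of 23 at P7 (2 higher, 1 lower), with the backgrounds given for this contrast in the account of Igfbp3. The median log2 difference of the list was -0.21, -0.10, 0.01 and 0.02 at the 4 ages, against -0.01, 0.02, 0.04 and 0.03 for all genes. Igf2, the other ligand, was lower in the lateral domain at each age (-1.97, -2.47, -1.71 and -1.86 from E14 to P7). Its P1 libraries held 3.43, 9.96, 7.38 and 8.69 CPM, against 174, 259.9, 194 and 209.8 CPM in interdental cells. H19, an imprinted transcript made next to Igf2, was lower as well at E14, E16 and P1 (-2.43, -2.28 and -2.64), with 23.1, 0.898, 10.3 and 8.99 CPM in the P1 lateral domain and 1110.4, 1123, 827 and 1122 CPM in interdental cells. At E14 Irs2, an adaptor of the receptor, was lower too (log2 difference -1.23 ± 0.29, adjusted p = 0.0188). Socs2, a feedback inhibitor of growth hormone signalling, was higher there at E14, E16 and P1 (2.25, 2.29 and 2.48). Igfbpl1, a relative of the binding proteins, was higher at P1 (log2 difference 4.92 ± 0.18, adjusted p = 7.08e-20) and P7 (3.58).

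Within the P1 lateral domain Igfbpl1 was lowest in rows 1 and 2, where Igfbp3 was highest, with 1392, 1289.5, 713 and 605 CPM in Deiters' row 3, 888, 776, 633 and 427 in inner pillar cells and 3.01, 0, 0 and 90.9 in rows 1 and 2 (log2 difference -5.64 ± 0.39, adjusted p = 9.52e-14 for rows 1 and 2 against row 3). It was 1 of the 2 list genes called in that contrast, of 17 tested (background 3.02%). In KO from P1 to P7, 12 of 22 list genes were called (5 higher, 7 lower, background 20.5%), a count under the same limit of that step's fit. Among them H19 fell (log2 difference -5.02 ± 0.24, adjusted p = 7.94e-10), and Socs2, Kazald1 and Grb14 rose (4.48, 3.64 and 3.08 on the log2 scale). In P7 mesenchyme 8 of 22 were called (6 higher, 2 lower, background 17.5%). Igf2 stood at 275 and 302 CPM there (log2 difference 3.20 ± 0.39, adjusted p = 7.66e-06) and Htra1, a protease that cuts binding proteins, at 348 and 433 CPM (log2 difference 4.46 ± 0.60, adjusted p = 2.16e-05). H19, at 777 and 758 CPM, and the adaptor Shc1 were higher as well (4.70 and 1.98).

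In P7 glia H19 was higher (3.61) and Kazald1, Socs2 and Grb14 were lower (-4.05, -3.09 and -1.99) on the log2 scale. Hair cells were below the lateral domain in Socs2 and Kazald1 at E16 (-1.69 and -1.40), P1 (-2.72 and -2.70) and P7 (-3.11 and -2.48). Igfbpl1 was lower in hair cells at P1 (-4.58) and P7 (-3.58), Igf2bp1 at P1 (-1.81) and Grb14 at P7 (log2 difference -1.67 ± 0.55, adjusted p = 0.048). Of the list genes tested in this contrast, 2 of 23 were called at E16 (background 13%), 9 of 23 at P1 (44.6%) and 4 of 23 at P7 (19.3%). In P7 glia 6 of 22 were called (23.6%). Over time, Igfbpl1 in the lateral domain rose from E14 to E16 (1.91), rose again to P1 (3.15) and fell to P7 (-1.59). Kazald1 rose there from E16 to P1 (1.86) and to P7 (2.35), when Grb14 also rose (2.02) and Pik3r1 fell (-1.62). In hair cells Grb10 and Igf2bp1 fell from E16 to P1 (-2.11 and -1.50), and Kazald1, Foxo3 and Grb14 rose from P1 to P7 (2.58, 1.54 and 1.51). In the lateral domain 1 of 23 was called from E14 to E16 (background 3.73%), 2 from E16 to P1 (4.21%) and 6 from P1 to P7 (10.4%). In hair cells 3 of 21 were called from E16 to P1 (17%) and 3 from P1 to P7 (18.5%). The genes named are the largest of these calls and are not read as a result about the list. Each named gene passed at an adjusted p under 0.05, and the alternatives were not followed for each of them. Kazald1 was also higher in Deiters' rows 1 and 2 than in row 3 (log2 difference 1.64 ± 0.25, adjusted p = 1.54e-05).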

How the data were processed

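Single-cell 3′ libraries of the cochlear duct floor (11, from 4 ages) were processed by the authors with Cell Ranger 2.1.1 and Seurat 2.0 on mm10, per the submitters' processing notes. The deposited values are the natural log of 1 plus UMIs per 10000 UMIs of the cell, per the authors' methods and the values, and whole UMIs were recovered from them (100% within 2%). Cells held 1499 to 23702 UMIs, and were taken as deposited, with no doublet caller.

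Cells were gated by mean z-score over a marker list (at least 0.5, a lead of 0.25 over the next list, 2 markers with a UMI). Some lists were taken from the study's own tables on these libraries. Gates under 10 cells in a library were left out. Mean CPM per gate and library was tested as log2(mean CPM + 10), which understates changes of low genes, with limma 3.58.1 (R 4.3.3), a trended variance, genes of at least 10 mean CPM and Benjamini-Hochberg adjustment over all genes (threshold 0.05). Regions were compared within an age with library as a block, and ages over all 4 without one. The P7 libraries give 2 values per gate. Within an age, p-values measure only how differences between gates vary from library to library, pooled over the gates of a fit. Between ages they measure only the spread between libraries of an age, pooled over the ages. Shares used cells thinned to 1500 UMIs and exact binomial 95% intervals, and floors are 3 UMIs; both cover counting error only.

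The members and lists were chosen with earlier results of these data known. All 8 members are named, and of the pathway list at most 4 per comparison, by size among those called with a log2 difference of at least 1. Alternatives were a pseudocount of 1 CPM, no filter, median-ratio scaling, deposited log values, a stricter gate (1 and 0.5), no 5% of cells with most UMIs, comparison with all other cells, the block, and leaving out each library; weights for counting error and all cells of each library were added after seeing the data. Statistics ran in Python 3.11.15 (numpy 2.4.6, scipy 1.17.1, pandas 2.3.3), and the fits were tested on simulated data. Of the 4 comparisons simulated, the unweighted fit kept false calls under its threshold in the P1 and P7 lateral domain and in Deiters' rows 1 and 2 against row 3, but not in KO from P1 to P7. The simulated gates of a library shared a common library effect, which the block takes out. The simulation therefore cannot show how the fits of regions do where gates vary between libraries each in their own way. With weights the false calls passed the threshold in all but the Deiters' rows. The unweighted fit missed most 2-fold changes where a group had 2 libraries or few cells, so that a gene not called at P7 may still differ.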

Additional observations from a re-analysis of the deposited data

Results flagged for a closer look

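Of 67 sets of 4 P1 libraries, 5 had a library far from the others; chance alone sets apart about 1 in 20. In inner phalangeal cells replicate 4 was highest in both Igf1 (72.1 CPM, against 41.5, 46.5 and 46.1) and Igfbp2 (414 CPM, against 70.7, 75.8 and 82.5). In Deiters' row 3 Igf2r was highest in replicate 3 (29.8 CPM, against 16.6, 16.7 and 14.8), and Igfbp2 was lowest in replicate 1 (7.36 CPM, against 61.9, 65.9 and 57.8). In the outer hair cell subgate Igfbp3 was highest in replicate 1 (49.4 CPM, against 10.8, 4.68 and 6.88).

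For 11 of 96 pairs of ages, in 4 genes, the libraries lay on opposite sides of 0 in the same contrast, and these differences between ages were not tested. The same count was not made over all genes. With as few as 2 libraries at an age such a split can arise by chance, so the count is not read as a result. Values are means of the log2 differences within libraries, with P1 replicate 3 having no roof gate, and can depart a little from the fitted ones. Neither P7 library had a roof gate, so the mean of the other regions at P7 leaves out the gate that was highest in Igfbp2 at P1. In the lateral domain minus the mean of the other regions, Igfbp2 was 0.35 at E14, 1.00 at E16 and 1.41 at P1, with all 9 libraries above 0, and -0.57 at P7 with 2 of 2 below 0. Igfbp4 was 0.59 at E14 (2 of 2 above 0) and -3.72 at P7 (2 of 2 below 0). Igf1r was 0.32 at both E14 and E16, with all 5 libraries above 0, and -0.54 at P7 (2 of 2 below 0). Igf2r, which was low throughout, was 0.29 at E14 (2 of 2 above 0), -0.83 at E16 (3 of 3 below 0) and 0.16 at P7 (2 of 2 above 0). In hair cells minus the lateral domain, Igf1r was -0.58 at E16 (3 of 3 below 0), 0.48 at P1 (4 of 4 above 0) and 0.86 at P7 (2 of 2 above 0). Igfbp2 in that contrast was 1.17 at E14 (2 of 2 above 0) and -2.38 at P1 (4 of 4 below 0).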

How the results depend on the processing

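The number of members called stayed within 1.5 times of the reported one in 270 of the recomputations, rose further in 10 and fell further in 29. Of single members' values, 1852 were counted as unchanged in direction and side of the threshold, 105 lost a call and 34 gained one. A further 54 that no fit called changed sign or fell to 0, and 1 reversed. The value that reversed was Igfbp4 in the P1 lateral domain against the other regions, at -0.14 on the mean of deposited log values. Region values at E14 and P7 with 1 library left are part of these counts. They had no test and so no side of the threshold to keep, and some did not keep their direction. In hair cells minus the lateral domain at P7, Igfbp4 was 1.04 in replicate 4 and -0.22 in replicate 5. In regions within an age, the E14 lateral domain contrast called 1 member without a filter and 1 without library as a block. Hair cells against the lateral domain at P7 called 2 on deposited log values, 2 with the stricter gate, 2 without the 5% of cells with most UMIs and 2 with weights. Deiters' rows 1 and 2 against row 3 called 1 without library as a block, and against inner pillar 1 with the stricter gate. P7 glia called 3 without a filter and 3 with weights.

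Between ages, leaving out a library gave 0 to 3 members for the lateral domain from E14 to E16, 0 to 1 from E16 to P1 and 1 to 4 from P1 to P7, 1 to 2 for KO from E14 to E16, 1 to 2 from E16 to P1 and 3 to 5 from P1 to P7, and 0 to 2 for each of the hair cell steps. A lone library at an age was then assumed to vary like those of the other ages. On deposited log values the lateral domain from E16 to P1 called 1, KO from P1 to P7 3, and hair cells 3 from E16 to P1 and 0 from P1 to P7, where Igf1 and Igfbp4, those called before, fell below that fit's filter and were not tested. From P1 to P7 the lateral domain called 1 with median-ratio scaling and 1 without the 5% of cells with most UMIs, KO 3 without a filter, and hair cells 1 without those cells. KO called 1 from E14 to E16 over all cells and 0 from E16 to P1 with the stricter gate. Replicate numbers did not pair the libraries of different ages (correlations of deviations of same-numbered libraries from -0.28 to 0.11). With the replicate number as a block, the lateral domain called 1 from P1 to P7, KO 2 from E16 to P1 and 3 from P1 to P7, and hair cells 0 from P1 to P7. At E14 and P7, leaving out a library leaves 1 and no test of regions. The cause of these changes was not tested.

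Over all genes, leaving out a library moved the number called from 2987 to between 1779 and 2994 (E16 regions), 1190 to between 647 and 1346 (E16 hair cells), 608 to between 260 and 696 (E16 lateral domain), 239 to between 27 and 429 (KO E16 against E14), 629 to between 238 and 888 (KO P1 against E16), 1743 to between 922 and 1949 (KO P7 against P1), 280 to between 156 and 284 (rows 1 and 2 against inner pillar), 257 to between 148 and 209 (rows 1 and 2 against row 3), 1555 to between 955 and 1673 (hair cells P1 against E16), 1688 to between 787 and 1783 (hair cells P7 against P1), 323 to between 64 and 487 (lateral domain E16 against E14), 364 to between 176 and 511 (lateral domain P1 against E16) and 900 to between 366 and 1051 (lateral domain P7 against P1). With all other cells of the library as the comparison it went from 361 to 954 (E14 lateral domain), 608 to 956 (E16 lateral domain), 2208 to 3382 (P1 lateral domain), 733 to 2671 (P7 lateral domain) and 1564 to 2732 (P7 mesenchyme). With all cells it went from 239 to 735 (KO E16 against E14) and 629 to 1145 (KO P1 against E16). With the mean of deposited log values it went from 239 to 1105 (KO E16 against E14), 629 to 1458 (KO P1 against E16), 1555 to 2537 (hair cells P1 against E16), 323 to 884 (lateral domain E16 against E14) and 364 to 1510 (lateral domain P1 against E16). With no filter it went from 280 to 178 (rows 1 and 2 against inner pillar), 257 to 138 (rows 1 and 2 against row 3), 323 to 167 (lateral domain E16 against E14) and 364 to 149 (lateral domain P1 against E16). With no library block it went from 608 to 394 (E16 lateral domain), 280 to 94 (rows 1 and 2 against inner pillar), 257 to 57 (rows 1 and 2 against row 3), 6377 to 4225 (P1 regions) and 2208 to 1285 (P1 lateral domain). With a pseudocount of 1 CPM it went from 239 to 145 (KO E16 against E14). With the replicate number as a block it went from 239 to 514 (KO E16 against E14), 1688 to 597 (hair cells P7 against P1) and 900 to 324 (lateral domain P7 against P1). With the stricter gate it went from 629 to 273 (KO P1 against E16), 280 to 90 (rows 1 and 2 against inner pillar) and 257 to 61 (rows 1 and 2 against row 3). With weights it went from 361 to 557 (E14 lateral domain), 608 to 929 (E16 lateral domain), 2777 to 4223 (P7 regions), 1680 to 2822 (P7 hair cells), 733 to 1435 (P7 lateral domain) and 323 to 205 (lateral domain E16 against E14). Gates of few cells, such as the 17 and 13 of the P7 outer sulcus, limit the precision of their values.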

Other observations

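Across 33 pairs of age and gate, each the mean over its libraries, the 9135 genes that passed 10 CPM and were not gate markers were ranked by Pearson's correlation with each member that reached 100 CPM in some gate (all but Igf2r). The points share libraries and ages, so the values are a description. Igfbp3 was most like Slitrk6 (0.89), Lfng (0.87), a modifier of Notch receptors, and Hs6st2 (0.84), an enzyme that sulphates heparan sulphate. Igf1 was most like Cdc42ep5 (0.83), the signalling ligand Wnt5a (0.81) and S100a11 (0.80). Igfbp4 was most like Lag3 (0.87), the matrix protease Adamts5 (0.84) and Cpz (0.81). Igfbp7 was most like Tgfbi (0.93), Trf (0.91), which encodes transferrin, and Gcg (0.90), with the P7 mesenchyme value far above its other points. Igf1r was most like Ubash3b (0.86), Mbtd1 (0.82) and Prrc2b (0.80), and Igfbp5 was most like Rrbp1 (0.77), Tpd52l1 (0.76) and Zbtb20 (0.74). Of these 7, Igfbp2 had the weakest first match, Tspan4 (0.71), and its correlation with its chromosomal neighbour Igfbp5 was 0.02.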
